A study of Mus musculus with 4 samples.

Results

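The 41 genes described here encode proteins of DNA repair and of the damage checkpoint, the signalling that halts division while DNA is broken. They were taken by gene symbol from a list of names, and all 41 were found among the 17559 genes of the deposited files. Homologous recombination supplied 17 of them, the Fanconi anaemia pathway 11, end joining 4, the checkpoint kinases 4, base excision and single-strand break repair 3, and mismatch repair 2. All 41 entered the test, which covered 12943 genes.

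RNA-seq had been carried out on mouse OT-I CD8+ T cells, 2 libraries from cells exposed to NaBu at 1 mM for 12 h and 2 from control cells. NaBu stands for sodium butyrate, the salt of a short-chain fatty acid, which inhibits histone deacetylases. Cells of both groups came from C57BL/6 mice, from tissue labelled LN, and were transgenic for the OT-I receptor, which recognises a peptide of ovalbumin. Before exposure both groups had been purified by magnetic negative selection (stated purity above 95%), stimulated for 2 d with 10 ng/ml IL-2 over coated antibodies to CD3 (at 1 µg/ml) and to CD28 (at 2 µg/ml), and kept for 2 d more in IL-2 alone, so both consist of activated cells. The labels do not say whether the 2 libraries of a group came from separate animals or cultures, and p-values therefore measure only the spread between these libraries, which may be technical. Expected counts summed to 19859649 and 19857701 in the NaBu libraries and to 20344399 and 20548571 in the control libraries. The 41 genes had between 59 and 4808 counts per library.

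Cells repair DNA by pathways that each handle a kind of lesion. Homologous recombination copies the intact sister chromatid and is used during and after DNA replication. End joining religates broken ends at any stage and also completes V(D)J recombination in developing lymphocytes. Mismatch repair corrects replication errors, base excision repair removes damaged bases, and the Fanconi anaemia proteins release crosslinks that block the replication fork. The kinases ATM and ATR sense breaks and stalled forks and pass the signal to CHK2 and CHK1. Activated T cells divide fast, and many genes of recombination and of the Fanconi anaemia pathway are known to be transcribed mainly around S phase.

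Most of the 41 transcripts were lower after NaBu. By edgeR's quasi-likelihood test, with p-values adjusted over all genes and called below 0.05, 34 of the 41 (82.9%) fell, while 34.1% of all tested genes fell and 68.6% were called in either direction. The 3 that rose were *Rad52*, *Fance* and *Lig4*, which is 7.32% of the 41, against 34.5% of all tested genes. *Mus81*, *Msh6*, *Xrcc6* and *Ung* did not pass the test. The median log2 fold change of the 41 was -0.94, and that of all tested genes was 0.005. The falls ranged from 1.17-fold for *Prkdc* to 5.24-fold for *Eme1*. They came to 2-fold or more for 18 genes (43.9% of the 41, against 8.11% of all tested genes), to between 1.5-fold and 2-fold for 6, and to less than 1.5-fold for 10. Against a null of 1.5-fold instead of no change (edgeR's glmTreat), 22 of the 41 were still called lower, as were 12.1% of all tested genes. Of the 3 that rose, *Rad52* (adjusted p = 0.0813), *Lig4* (0.358) and *Fance* (1) were not past that null, which 17.1% of all tested genes passed upwards. On TMM-scaled CPM, both NaBu libraries lay below both control libraries for 35 of the 41 and above both for 3, while 41.8% and 42.4% of all tested genes did so.

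**Figure D1:**
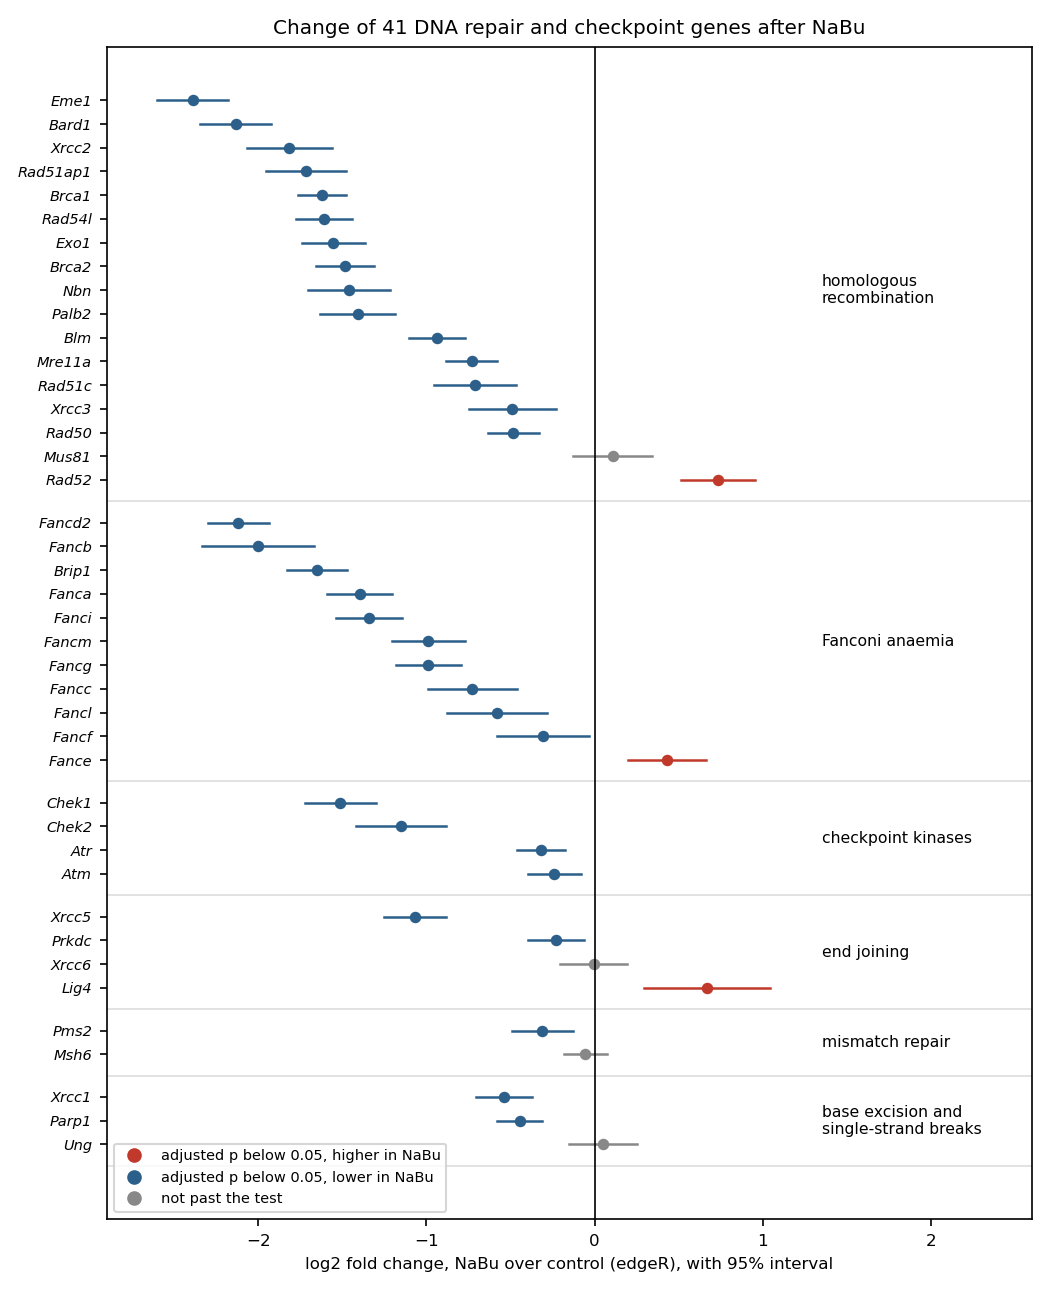
Log2 fold change, NaBu over control, of the 41 genes by pathway, as fitted by edgeR from 2 NaBu and 2 control libraries. Points are estimates, bars are 95% intervals, and colour gives the call at an adjusted p below 0.05. The 18 falls of 2-fold or more lie among homologous recombination, Fanconi anaemia and checkpoint genes and *Xrcc5*, and the 3 red points are *Rad52*, *Fance* and *Lig4*.

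Levels are given below as FPKM, the deposited fragment number per length of transcript and depth, which allows genes to be compared with each other. Mean FPKM had a median over the 41 genes of 5.8 in the NaBu cells and 11.22 in the control cells. *Parp1* was the most abundant in both groups, at a mean of 46.3 FPKM in NaBu cells and 58.9 FPKM in control cells. *Msh6* and *Xrcc1* followed in both. The lowest means were 1.005 FPKM for *Fancb* in NaBu cells and 1.085 FPKM for *Lig4* in control cells. The SD between the 2 libraries of a group had a median of 3.3% of the mean in NaBu cells, with a maximum of 14% for *Rad51ap1*, and of 6.72% in control cells, with a maximum of 21.5% for *Lig4*. In sum the 41 transcripts reached 348.8 and 348.5 FPKM in the NaBu libraries, against 525.7 and 536.8 FPKM in the control libraries. In these bulk libraries, fewer cells carrying a transcript and less of it per cell cannot be told apart.

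Promoter sequences, 250 bases before to 50 after an annotated start, were held by the RefSeq table (GRCm38.p6, the assembly also called mm10) for 35 of the 41 genes. That start is not always the outer end of the gene coordinates. Letters known as binding motifs of the E2F factors, which switch on genes for DNA replication, were sought on both strands as TTTCCCGC, TTTGGCGC, TTTCGCGC and TTTGCCGC. They stood in 7 of the 35 (20%), against 4.8% of the promoters of 10303 tested genes and 2.6% of all 27025 in the table. The 7 were *Bard1*, *Brca2*, *Rad51c*, *Fancg* and *Chek2*, which fell, and *Xrcc6* and *Msh6*, which did not pass the test. The cell cycle homology region letters TTTGAA stood in 2 of the 35 (5.7%), *Bard1* and *Eme1*, against 14.3% and 20.2% of those promoters. The CCAAT box letters stood in 21 (60.0%), against 43.4% and 41.1%. By call, the E2F letters stood in 3 of the 14 that fell by 2-fold or more, in 2 of the 14 that fell by less, and in 2 of the 7 that rose or did not pass. A match describes the letters in the window only.

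The promoters of 2 genes that fell strongly and of 2 that did not pass the test are printed to show the same E2F letters on both sides of the result. Capitals mark the E2F letters and, in *Bard1*, also TTTGAA. *Bard1* is given on the minus strand of chr1:71102923-71103222, with the E2F letters starting at position -209 from the start site. *Brca2* is on the plus strand of chr5:150522371-150522670, with the letters at -168. *Xrcc6* is on the plus strand of chr15:82016119-82016418, with the letters at -46. *Msh6* is on the plus strand of chr17:87974800-87975099, with the letters at position 16 after the start. In *Brca2* and *Xrcc6* the letters lie on the other strand and read GCGGGAAA, and no match in these windows shares bases with another. Positions count from the start site of each window. The windows of *Brca2* and *Xrcc6* lie inside the gene coordinates, which begin at 150522297 and 81987833. The start used for *Bard1* also lies inside its gene, whose outer end is at 71103141.
Bard1: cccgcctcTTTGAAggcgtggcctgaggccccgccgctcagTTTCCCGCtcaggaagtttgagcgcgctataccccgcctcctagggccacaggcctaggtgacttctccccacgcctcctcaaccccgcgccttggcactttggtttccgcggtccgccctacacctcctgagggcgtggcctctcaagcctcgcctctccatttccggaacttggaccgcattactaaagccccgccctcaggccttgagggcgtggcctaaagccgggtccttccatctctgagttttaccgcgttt
Brca2: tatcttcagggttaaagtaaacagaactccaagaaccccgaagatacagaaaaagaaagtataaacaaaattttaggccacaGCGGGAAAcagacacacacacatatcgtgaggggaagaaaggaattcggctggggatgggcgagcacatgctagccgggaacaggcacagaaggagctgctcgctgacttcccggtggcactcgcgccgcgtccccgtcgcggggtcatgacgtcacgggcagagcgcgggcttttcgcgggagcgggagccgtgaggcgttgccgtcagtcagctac
Xrcc6: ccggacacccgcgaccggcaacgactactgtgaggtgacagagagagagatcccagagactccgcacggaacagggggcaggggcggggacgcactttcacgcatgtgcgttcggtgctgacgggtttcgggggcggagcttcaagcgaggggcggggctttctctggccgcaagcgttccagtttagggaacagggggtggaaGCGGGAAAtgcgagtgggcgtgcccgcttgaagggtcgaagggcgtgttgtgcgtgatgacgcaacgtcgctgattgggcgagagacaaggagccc
Msh6: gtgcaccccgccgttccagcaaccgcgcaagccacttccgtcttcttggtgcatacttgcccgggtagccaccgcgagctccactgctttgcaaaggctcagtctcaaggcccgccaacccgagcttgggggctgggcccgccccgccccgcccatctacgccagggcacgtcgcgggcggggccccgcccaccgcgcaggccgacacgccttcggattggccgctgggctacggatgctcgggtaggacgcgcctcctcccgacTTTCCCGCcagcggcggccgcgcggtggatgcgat

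Homologous recombination held the largest falls. Of its 17 genes, 15 fell, *Rad52* rose and *Mus81* did not pass, and on the log2 scale the median change was -1.46. *Brca1* and *Bard1* encode the partners of a ubiquitin ligase that directs broken ends into recombination. *Brca1* (chr11:101488761-101551955) had 6.49 and 6.80 FPKM in the NaBu libraries, against 18.65 and 19.56 FPKM in the control libraries. *Bard1* (chr1:71027535-71103141) had 1.85 and 2.11 FPKM in the NaBu libraries, against 7.91 and 8.32 FPKM in the control libraries. Both genes were lower in each NaBu library than in either control library. The log2 fold change was -1.62 ± 0.06 (SE) for *Brca1* (adjusted p = 1.25e-08) and -2.13 ± 0.10 for *Bard1* (adjusted p = 2.31e-08). *Brca2*, a mediator of strand exchange on single-stranded DNA, had 2.67 and 2.88 FPKM in the NaBu libraries, against 6.95 and 7.61 FPKM in the control libraries. *Palb2*, which bridges BRCA1 and BRCA2, had 2.31 and 2.24 FPKM in the NaBu libraries, against 5.98 and 5.71 FPKM in the control libraries. This pair fell to nearly the same degree, by 1.49 and 1.41 on the log2 scale.

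The other genes of strand exchange changed unequally. *Rad51ap1*, a cofactor of that step, had 7.62 and 9.29 FPKM in the NaBu libraries, against 24.53 and 27.45 FPKM in the control libraries. *Rad54l*, a motor protein that acts on chromatin during strand exchange, had 7.16 and 7.31 FPKM in the NaBu libraries, against 21.05 and 20.52 FPKM in the control libraries. They fell by 3.29-fold and 3.05-fold in that order. Among *Xrcc2*, *Rad51c* and *Xrcc3*, related proteins that support the same step, *Xrcc2* had 1.65 and 1.79 FPKM in the NaBu libraries, against 5.54 and 5.78 FPKM in the control libraries. *Rad51c* and *Xrcc3* fell less, by 0.71 and 0.49 on the log2 scale, against 1.81 for *Xrcc2*. *Xrcc3* had 6.21 and 6.74 FPKM in the NaBu libraries, against 9.46 and 7.55 FPKM in the control libraries, so that its NaBu libraries lay close to the lower control library.

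*Rad52* went the other way. It encodes the protein that anneals complementary single strands. It had 13.22 and 13.03 FPKM in the NaBu libraries, against 7.89 and 6.85 FPKM in the control libraries. Both NaBu libraries lay above both control libraries, and the log2 fold change was 0.73 ± 0.10 (SE; 95% interval 0.51 to 0.95; adjusted p = 7.12e-05). It stayed called when any single library was left out, with a log2 fold change of 0.63 to 0.83.

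The MRE11 complex, which holds and trims broken ends, has 3 subunits, and all 3 transcripts fell, to different degrees. *Nbn*, the subunit that recruits ATM, had 5.86 and 5.74 FPKM in the NaBu libraries, against 13.43 and 16.40 FPKM in the control libraries. *Mre11a*, the nuclease, had 8.07 and 7.91 FPKM in the NaBu libraries, against 12.05 and 12.75 FPKM in the control libraries. *Rad50*, the tether, had 15.70 and 14.98 FPKM in the NaBu libraries, against 19.09 and 20.99 FPKM in the control libraries. On the log2 scale they fell by 1.46, 0.73 and 0.48 in that order. *Exo1*, the exonuclease that lengthens the single-stranded tail, fell by 1.55, to 2.86 and 2.80 FPKM in the NaBu libraries, against 7.53 and 8.01 FPKM in the control libraries. *Blm*, the helicase that dissolves joined chromatids, fell by 0.94.

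The largest fall among the 41 was that of *Eme1* (chr11:94644972-94653836), a partner with which the nuclease MUS81 cuts joined DNA molecules. It had 3.78 and 3.43 FPKM in the NaBu libraries, against 17.98 and 17.31 FPKM in the control libraries. The log2 fold change was -2.39 ± 0.09 (SE; adjusted p = 1.19e-08), a fall of 5.24-fold. *Mus81* itself had 11.56 and 11.48 FPKM in the NaBu libraries, against 11.04 and 8.96 FPKM in the control libraries. Its log2 fold change was 0.11 (95% interval -0.13 to 0.34; adjusted p = 0.385), and its direction turned to -0.04 without control library 2 and to -0.34 once a trend with GC content was removed. In the GENCODE annotation of mm10, 9.04% of the exon bases of *Eme1* are shared with *Lrrc59* and 3.07% with *Mrpl27*. The sources used here do not say whether counting used strand, and reads in such stretches cannot be told apart. Between 4.12% and 8.62% of exon bases are shared with another gene for *Rad54l*, *Fancd2*, *Atr*, *Pms2*, *Fancm* and *Fanca*. That gene lies on the same strand for *Pms2*, and on the opposite strand for the rest and for *Eme1*.

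**Figure D2:**
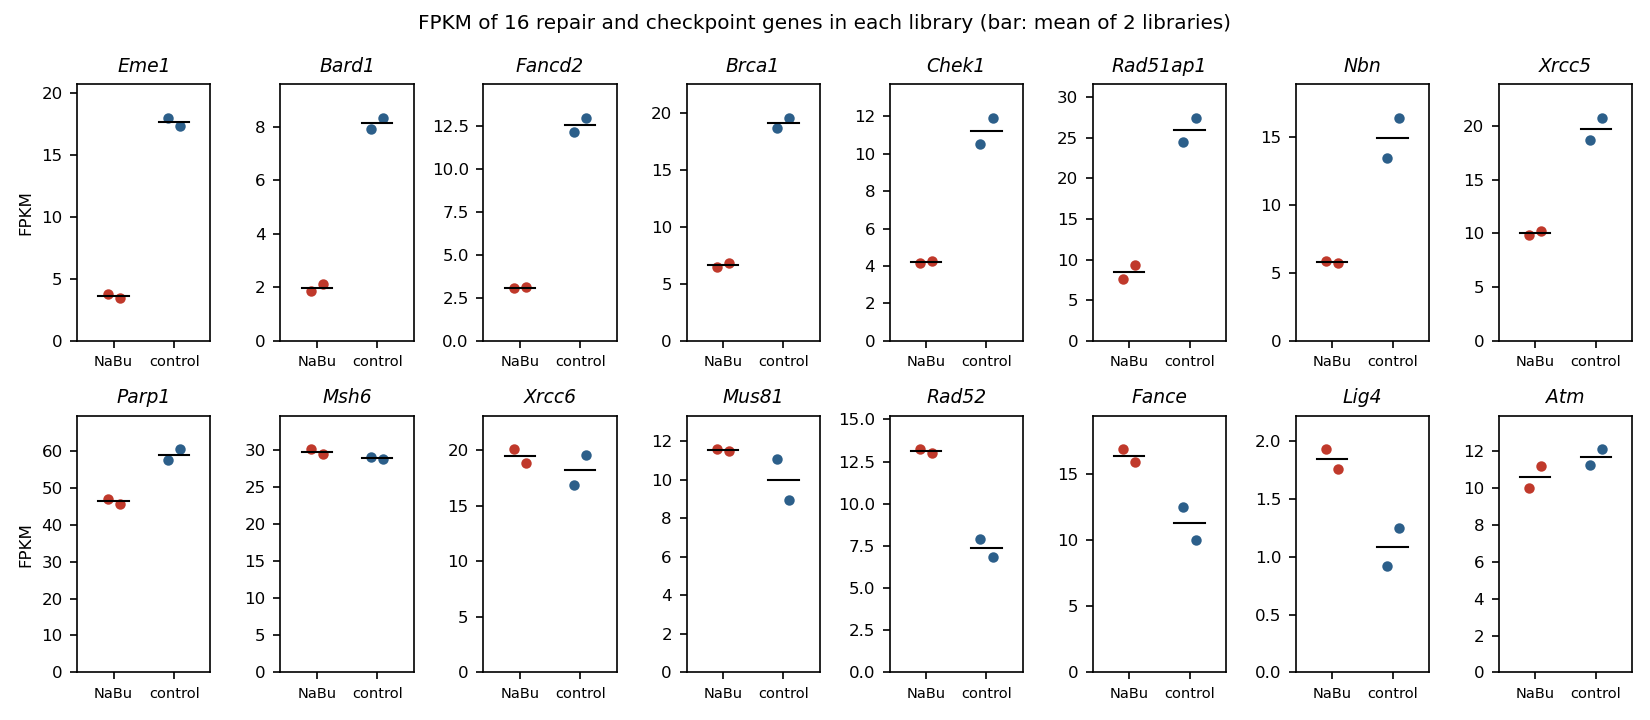
FPKM of 16 of the genes in each library, NaBu to the left of control, with a bar at the mean of the 2 libraries and each axis starting at 0. In the upper row every NaBu library lies below every control library, as for *Eme1* at 3.78 and 3.43 FPKM against 17.98 and 17.31 FPKM, and in the lower row *Rad52*, *Fance* and *Lig4* lie higher in NaBu.

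In the Fanconi anaemia pathway 10 of 11 genes fell and *Fance* rose, and the median was -0.99 on the log2 scale. The core complex is a ubiquitin ligase that marks the FANCD2 and FANCI proteins at a crosslink. *Fancd2* had 3.08 and 3.12 FPKM in the NaBu libraries, against 12.16 and 12.97 FPKM in the control libraries. *Fanci* had 5.51 and 5.51 FPKM in the NaBu libraries, against 12.09 and 14 FPKM in the control libraries. Both lay far below their control libraries, with log2 fold changes of -2.12 ± 0.08 (SE; adjusted p = 1.08e-08) and -1.34 ± 0.09 (adjusted p = 3.2e-07). *Fanci* shares 13.4% of its exon bases with *Polg*. *Brip1*, the helicase that binds BRCA1 and is also named FANCJ, had 3.78 and 3.68 FPKM in the NaBu libraries, against 10.39 and 11.53 FPKM in the control libraries.

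Within the core complex the changes ran over a wide range. *Fancb* had 1.02 and 0.99 FPKM in the NaBu libraries, against 3.49 and 4.05 FPKM in the control libraries, a 4.00-fold fall. *Fanca* had 4.18 and 4.46 FPKM in the NaBu libraries, against 11.15 and 10.13 FPKM in the control libraries. The further scaffold subunit *Fancg* fell by 0.99 on the log2 scale, as did the translocase *Fancm*, which brings the complex to DNA. *Fancc* fell by 0.73 and *Fancl*, the catalytic subunit, by 0.58, with 17.0% of the exon bases of *Fancl* shared with *Vrk2*. *Fancf* had 5.05 and 4.45 FPKM in the NaBu libraries, against 5.54 and 5.46 FPKM in the control libraries. Its fall of 0.31 on the log2 scale had an adjusted p of 0.0455 by edgeR and was lost in 13 of 16 other settings. Over the 16 its log2 fold change ran from -0.63 to -0.18, and the call stayed with a GC trend removed, plain or robust. *Fance*, which links the core complex to FANCD2, had 16.89 and 15.96 FPKM in the NaBu libraries, against 12.52 and 10.05 FPKM in the control libraries. Its log2 fold change was 0.43 ± 0.10 (SE; adjusted p = 0.00386). The call of *Fance* was lost without NaBu library 1 (adjusted p = 0.056), and with a GC trend removed its direction turned to -0.29 (adjusted p = 0.0304) or stayed at 0.18 (adjusted p = 0.14 with a robust trend).

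The checkpoint kinases all fell, the transducers more than the sensors. *Chek1*, the kinase downstream of ATR that restrains replication, had 4.15 and 4.28 FPKM in the NaBu libraries, against 10.54 and 11.91 FPKM in the control libraries. *Chek2*, the kinase downstream of ATM, had 3.11 and 3.18 FPKM in the NaBu libraries, against 7.03 and 6.03 FPKM in the control libraries. Neither gene's groups overlapped, with log2 fold changes of -1.51 ± 0.09 (SE; adjusted p = 2.23e-07) and -1.15 ± 0.12 (adjusted p = 1.1e-05). *Atr* had 8.06 and 8.14 FPKM in the NaBu libraries, against 9.19 and 9.69 FPKM in the control libraries. *Atm* had 9.97 and 11.16 FPKM in the NaBu libraries, against 11.24 and 12.08 FPKM in the control libraries, so the groups of *Atm* came close without overlapping. The log2 fold changes were -0.32 (95% interval -0.46 to -0.18) for *Atr* and -0.24 (95% interval -0.40 to -0.08) for *Atm*. *Atm* lost its call in 8 of 16 other settings and *Atr* in 2, the 1.5-fold null among them for both.

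End joining was divided. *Xrcc5* and *Xrcc6* encode KU80 and KU70, which together form the ring that clasps a broken end. *Xrcc5* (chr1:72307417-72394953) had 9.85 and 10.26 FPKM in the NaBu libraries, against 18.66 and 20.73 FPKM in the control libraries. *Xrcc6* had 20.05 and 18.79 FPKM in the NaBu libraries, against 16.83 and 19.59 FPKM in the control libraries. The groups of *Xrcc5* lay apart and those of *Xrcc6* overlapped, with log2 fold changes of -1.07 ± 0.08 (SE; adjusted p = 1.2e-06) and -0.004 (95% interval -0.20 to 0.19; adjusted p = 0.97). *Xrcc6* shares 8.5% of its exon bases with *Desi1*. *Prkdc*, the kinase that KU recruits, had 4.36 and 4.55 FPKM in the NaBu libraries, against 4.61 and 5.15 FPKM in the control libraries. That fall of 0.23 on the log2 scale (adjusted p = 0.0195) was lost in 11 of 16 other settings. *Lig4*, the ligase of the pathway, had 1.93 and 1.76 FPKM in the NaBu libraries, against 0.92 and 1.25 FPKM in the control libraries. It rose by 0.67 ± 0.17 on the log2 scale (SE; adjusted p = 0.0049), and the call was lost without NaBu library 1 (adjusted p = 0.0538).

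The genes of mismatch and base excision repair included the 3 most abundant of the 41, and in the main fit none of them fell by 1.5-fold. *Msh6*, which recognises base mismatches, had 30.01 and 29.42 FPKM in the NaBu libraries, against 29.02 and 28.73 FPKM in the control libraries. On TMM-scaled counts its log2 fold change was -0.06 (95% interval -0.18 to 0.07; adjusted p = 0.414), and its sign differs between that scale and FPKM. *Pms2*, an endonuclease subunit, fell by 0.31, to 11.31 and 11.64 FPKM in the NaBu libraries, against 14.14 and 12.50 FPKM in the control libraries. That call was lost without NaBu library 1 or NaBu library 2 (adjusted p = 0.085 and 0.0565). *Ung*, the glycosylase that removes uracil, had 13.86 and 15.57 FPKM in the NaBu libraries, against 12.84 and 13.66 FPKM in the control libraries, with a log2 fold change of 0.05 (95% interval -0.15 to 0.25; adjusted p = 0.642). *Parp1*, the sensor of single-strand breaks, had 47.00 and 45.60 FPKM in the NaBu libraries, against 57.45 and 60.34 FPKM in the control libraries. *Xrcc1*, the scaffold that PARP1 activity attracts, had 20.75 and 19.68 FPKM in the NaBu libraries, against 28.76 and 26.15 FPKM in the control libraries. Both fell, by 0.44 and 0.54 on the log2 scale, and neither passed the 1.5-fold null. The size for *Xrcc1* depended on the setting, with log2 fold changes from -1.08 to -0.42 over the 16 other settings. Those of *Parp1* ran from -0.51 to -0.34.

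Proteins of several of these genes work only as partners, and ratios of their FPKM within a library are free of scaling between libraries. The pairs were chosen after values were seen, and with 2 libraries per group the smallest two-sided p of an exact permutation test is 0.333, and the ratios are given without a test. *Eme1* stood to *Mus81* at 0.327 and 0.2988 in the NaBu libraries, against 1.629 and 1.932 in the control libraries. *Eme1* was the scarcer transcript of the pair in NaBu cells and *Mus81* in control cells. *Xrcc5* stood to *Xrcc6* at 0.4913 and 0.546 in the NaBu libraries, against 1.109 and 1.058 in the control libraries. *Fancd2* stood to *Fanci* at 0.559 and 0.5662 in the NaBu libraries, against 1.006 and 0.9264 in the control libraries. In these 3 pairs the control ratios lay near or above 1 and the NaBu ratios well below it. *Nbn* stood to *Rad50* at 0.3732 and 0.3832 in the NaBu libraries, against 0.7035 and 0.7813 in the control libraries. *Bard1* stood to *Brca1* at 0.2851 and 0.3103 in the NaBu libraries, against 0.4241 and 0.4254 in the control libraries. *Palb2* to *Brca2* did not separate the groups, at 0.8652 and 0.7778 in the NaBu libraries, against 0.8604 and 0.7503 in the control libraries, nor did *Xrcc1* to *Parp1*. Transcript ratios give no protein amounts.

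**Figure D3:**
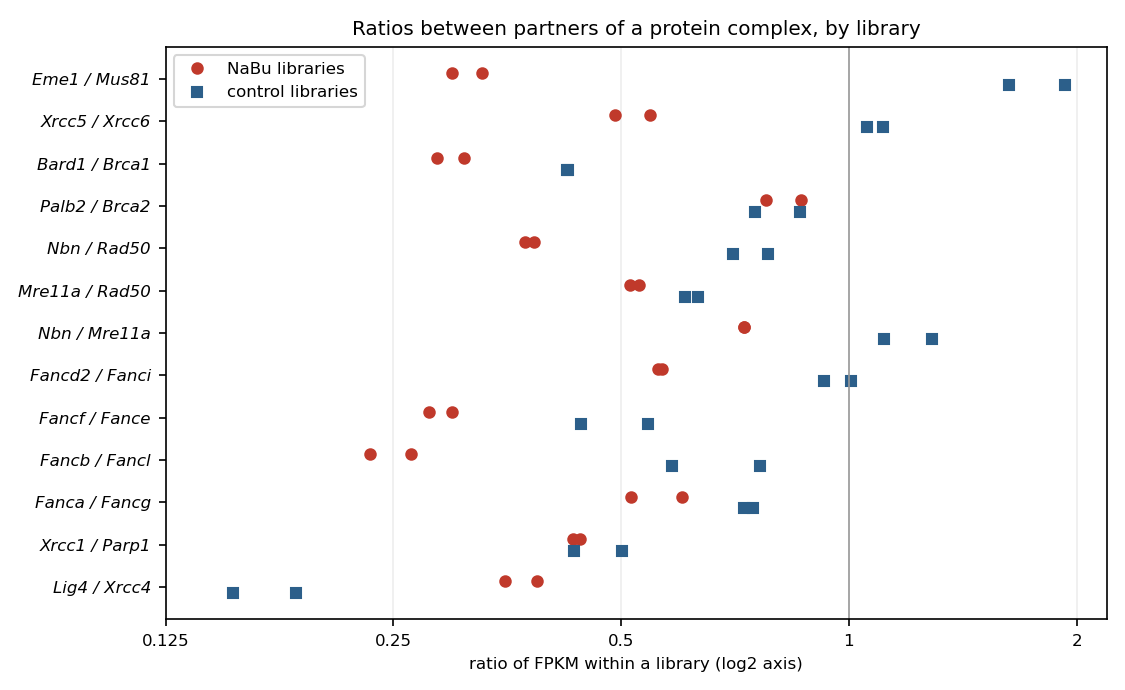
Ratio of FPKM between the transcripts of 13 pairs of partners, in each NaBu library (circles) and each control library (squares), on a log2 axis. The groups lie apart for 11 pairs and overlap for *Palb2* to *Brca2* and *Xrcc1* to *Parp1*, and the widest gap is that of *Eme1* to *Mus81*. The pairs were chosen after values were seen, and the share over other gene pairs was not computed. Among single tested genes, 41.8% lay lower and 42.4% higher in both NaBu libraries, so groups that lie apart are common in these data.

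Further genes of the same pathways, outside the 41, numbered 144, of which 139 were tested. Of these 91 (65.5%) fell, 20 (14.4%) rose and 28 did not pass, where 34.1% and 34.5% of all tested genes fell and rose. In homologous recombination and Fanconi anaemia 31 of 35 fell and *Slx1b* alone rose, and the median was -0.52 on the log2 scale. *Gen1*, a nuclease that resolves joined molecules, fell by 1.78 and *Rad54b*, a relative of *Rad54l*, by 1.65. In mismatch repair 11 of 13 fell, with a median of -0.80, and the largest falls were those of the ligase *Lig1* (-1.80), the clamp loader subunits *Rfc3* (-1.69) and *Rfc5* (-1.48) and the polymerase subunit *Pold1* (-1.38), which also serve DNA replication.

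In end joining 9 of 14 fell and 3 rose, with a median of -0.29. *Dclre1c*, which encodes the nuclease Artemis that opens hairpin ends, had 12.44 and 12.77 FPKM in the NaBu libraries, against 6.47 and 5.75 FPKM in the control libraries. It rose by 0.98 on the log2 scale, while *Polq*, the polymerase of the alternative end joining route, fell by 1.63 and *Nhej1*, a cofactor of LIG4, by 1.40. In base excision repair 12 of 18 fell and 2 rose. *Neil3*, a glycosylase of replicating cells, had 4.01 and 4.23 FPKM in the NaBu libraries, against 22.68 and 23.87 FPKM in the control libraries, a deeper fall (-2.60) than that of any of the 41. *Fen1*, the flap nuclease, fell by 1.34 and *Apex1*, the main abasic site nuclease, by 1.19.

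Nucleotide excision repair, which removes bulky lesions, changed in nearly the same shares as all tested genes, of which 34.1% fell and 34.5% rose. Of its 18 genes 6 fell (33.3%), 6 rose (33.3%) and 6 did not pass, with a median log2 fold change of -0.05. *Ercc5* (0.53) and *Xpa* (0.53) rose, whereas *Gtf2h4* (-0.76) and *Gtf2h2* (-0.53), subunits of the TFIIH helicase complex, fell. In translesion synthesis, the copying past damaged bases, 4 of 12 fell (33.3%) and 3 rose (25%), with a median of 0.04. The ubiquitin-conjugating enzymes *Ube2b* and *Ube2a* rose by 0.63 and 0.60, and their partner ligase *Rad18* fell by 1.43. Both medians lay near the 0.005 of all tested genes, unlike those of recombination and mismatch repair.

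In damage signalling 18 of 29 fell and 5 rose, with a median of -0.39. *Clspn*, the adaptor through which ATR activates CHK1, had 6.97 and 7.55 FPKM in the NaBu libraries, against 31.69 and 35.79 FPKM in the control libraries, a log2 fold change of -2.31. *Trp53*, the gene of the p53 factor, had 47.26 and 51.40 FPKM in the NaBu libraries, against 142.57 and 139.90 FPKM in the control libraries. Against these falls, *Gadd45b*, a stress-induced gene that also activates p38 signalling in T cells, had 16.45 and 17.54 FPKM in the NaBu libraries, against 3.96 and 4.03 FPKM in the control libraries. The related *Gadd45g*, picked after its values were seen, had 200.50 and 204.12 FPKM in the NaBu libraries, against 84.80 and 70.75 FPKM in the control libraries. Chosen in the same way, *Gadd45a* had 2.81 and 3.18 FPKM in the NaBu libraries, against 0.99 and 1.08 FPKM in the control libraries, so that all 3 *Gadd45* genes rose.

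**Figure D4:**
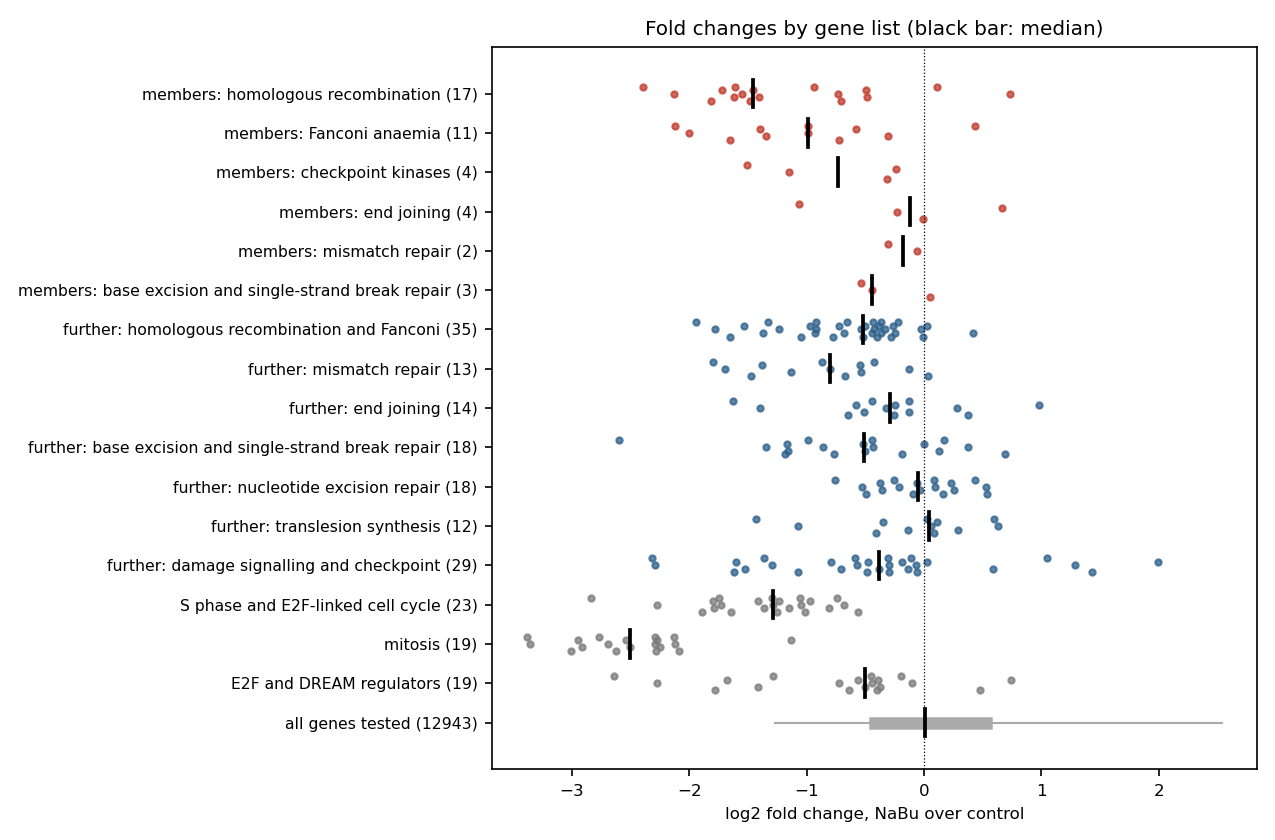
Log2 fold changes, NaBu over control, of each tested gene by list, with the number tested in brackets. Red points are the 41 genes, blue points the further repair genes, grey points cell cycle lists, and the black bar is the median. The bottom row gives all tested genes, with a thick line over the 25th to 75th percentile (-0.42 to 0.53) and a thin line over the 5th to 95th (-1.27 to 2.54). The medians of nucleotide excision repair and translesion synthesis lie near 0, and that of mitosis lies lowest at -2.51.

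The genes of S phase and mitosis moved with the repair genes. All 23 tested genes of the S phase list fell (median log2 fold change -1.29), and their FPKM summed to 713 and 751.8 in the NaBu libraries, against 1667 and 1735 in the control libraries. *Rrm2*, the ribonucleotide reductase subunit of S phase, had 42.99 and 49.55 FPKM in the NaBu libraries, against 203.96 and 215.71 FPKM in the control libraries. All 19 mitosis genes fell, with a median of -2.51, and summed to 309.3 and 320 FPKM in the NaBu libraries, against 1282 and 1357 FPKM in the control libraries. *Plk1*, a mitotic kinase, had 10.06 and 10.92 FPKM in the NaBu libraries, against 79.83 and 77.82 FPKM in the control libraries. The median of the 41 repair genes (-0.94) lay between that of all genes and those of both lists, and the part of a change in cycling cells in the repair genes was not tested.

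Markers of CD8 T cells were high in every library, *Cd8a* with 93.88 and 96.96 FPKM in the NaBu libraries, against 118.38 and 115.87 FPKM in the control libraries. The 7 markers summed to 1533 and 1544 FPKM in the NaBu libraries, against 1716 and 1645 FPKM in the control libraries. By call 6 of the 7 fell and *Cd3g* rose, where 34.1% and 34.5% of all tested genes fell and rose. *Cd247* fell most, with a log2 fold change of -1.21. *Cd3g*, the largest part of the sum, had 556.70 and 554.50 FPKM in the NaBu libraries, against 407.01 and 374.69 FPKM in the control libraries. Of 10 myeloid and dendritic markers 7 were listed and 5 tested, of which 4 rose, and the list summed to 40.33 and 38.29 FPKM in the NaBu libraries, against 16.36 and 14.83 FPKM in the control libraries, mostly from *Cd68*. *Csf1r*, *Lyz2* and *S100a8* of that list had no value in any library, and *Adgre1* was at most 0.02 FPKM. The 5 B cell markers summed to 2.62 and 1.96 FPKM in the NaBu libraries, against 5.73 and 4.07 FPKM in the control libraries, with no value for *Ms4a1* or *Pax5*. The 3 NK cell markers summed to 6.74 and 7.28 FPKM in the NaBu libraries, against 11.68 and 10.21 FPKM in the control libraries. The 3 CD4 T cell markers summed to at most 1.01 FPKM, with *Cd4* at 0.66 and 0.65 FPKM in the NaBu libraries, against 0.02 and 0.03 FPKM in the control libraries. The 3 erythroid markers summed to 6.59 and 7.24 FPKM in the NaBu libraries, against 1.16 and 1.29 FPKM in the control libraries. The part of other cell types in the repair results was not tested.

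By the GC content of their transcripts, 26 of the 41 lay in the lowest 2 of 5 equal groups of genes by GC content, and 25 of those 26 fell. Among all genes, 38.8% of the lowest group and 36.7% of the next fell, against 27.7% of the highest. From the lowest to the highest group, the median log2 fold change of all genes was -0.12, -0.04, 0.01, 0.04 and 0.20. The median of the 41 was -0.94, and the cause of the trend with GC content was not tested. With the trend over GC content removed, 34 of the 41 fell and 2 rose, and with a robust form of that trend 32 fell and 2 rose. *Eme1* then stood at -2.49 or -2.41 and *Rad52* at 0.72 or 0.73. Under the plain form 6 of the 41 changed their call. *Fance* turned from higher to lower (-0.29; adjusted p = 0.0304), and *Mus81* and *Ung* were called lower (adjusted p = 0.0143 and 0.0103). *Atr* (-0.02; adjusted p = 0.787), *Atm* (-0.01; 0.887) and *Prkdc* (-0.01; 0.893) were no longer called. Under the robust form *Atr* kept its call (adjusted p = 0.0229), *Fance* (0.14), *Atm* (0.0907) and *Prkdc* (0.116) lost theirs, and *Mus81* and *Ung* did not pass (0.826 and 0.617).

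**Figure D5:**
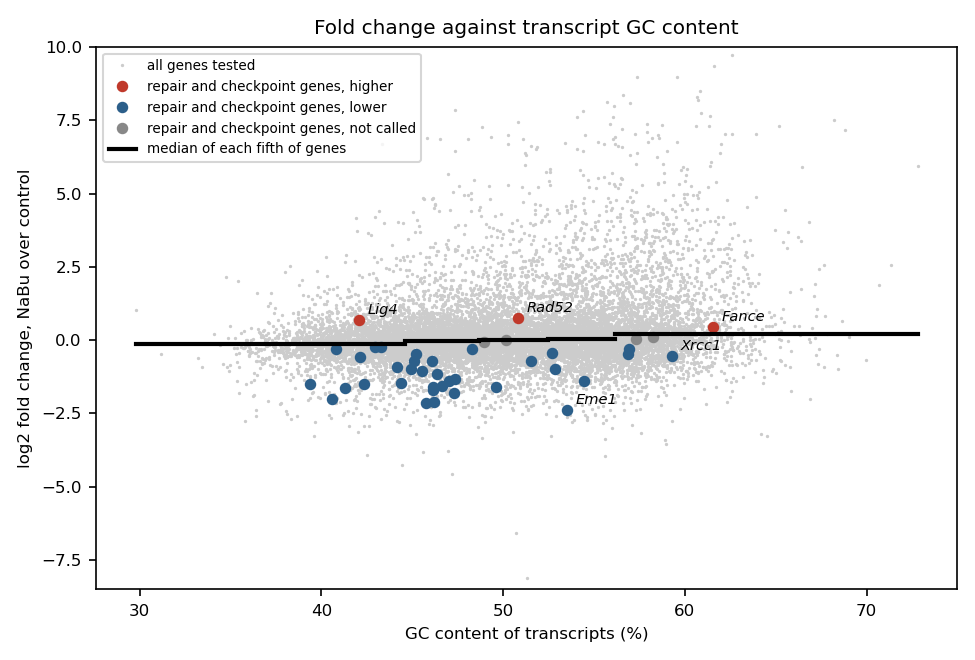
Log2 fold change, NaBu over control, against the GC content of a gene's transcripts in percent, for all tested genes with a GC value (small grey points) and the 41 genes (large points, coloured by call). Black lines are medians of 5 equal groups of genes and run between -0.12 and 0.20, and most large points lie below them.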

How the data were processed

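RNA-seq libraries of 2 NaBu and 2 control samples were grouped by their titles. The submitters' processing notes name Bowtie2, RSEM and mm10, without versions. The deposited files give an expected count and an FPKM value per gene and library, per the file headers. Expected counts were rounded to whole numbers and tested with edgeR 4.0.16 in R 4.3.3 (TMM factors, filterByExpr, quasi-likelihood F test, no covariates), and p-values were adjusted by Benjamini-Hochberg over 12943 genes and called below 0.05. The authors' FPKM values were used as deposited. RSEM divides reads that match several genes by estimation. The SE of a log2 fold change is its size over the root of its F statistic.

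The 41 genes and all lists were chosen with earlier results of these data known. The text accounts for all 41, and names per further list up to 4 called genes by size of change, if their higher group averaged at least 1 FPKM; other names (*Slx1b*, *Gadd45a*, *Gadd45g*, marker genes) were chosen after their values were seen. Not every gene meeting that rule is reported here. In simulated counts of 12721 genes the test called 79.1% of 67 genes set to 1.5-fold, 82.5% of 63 set to 2-fold, 98.5% of 66 set to 4-fold, and 7 of 12525 left unchanged. Few genes were changed there, whereas 68.6% of all tested genes were called in the data. The adjustment of p-values depends on that share, so these rates need not hold for the data.

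The alternatives tried were library totals or median-of-ratios factors in place of TMM, no filter, a minimum of 5 CPM in 2 libraries, DESeq2 1.42.0, limma-voom and limma 3.58.1 on log2(FPKM + 1) and log2(FPKM + 0.1), glmTreat against 1.5-fold, a block for the replicate number, and each library left out in turn. Removal of a loess trend with GC content, plain and robust, was added after seeing the data. Exon overlaps come from the GENCODE annotation of mm10, and gene coordinates and promoters from RefSeq. *Prkdc*, *Nbn*, *Exo1*, *Rad50*, *Xrcc2* and *Fancd2* had no promoter entry.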

Additional observations from a re-analysis of the deposited data

How the results depend on the processing

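Over the alternatives other than glmTreat, 30 to 34 of the 41 genes were lower. Of the 34, 29 kept direction and call in all 15 of them, and 22 of the 41 kept both in all 16 alternatives. By edgeR's glmTreat against the 1.5-fold null, 3779 of all genes, 22 lower and 0 higher of the 41 (1 higher at an unadjusted p below 0.05), and 43 lower and 5 higher of the further repair genes were called. Leaving out each library gave 1 (without NaBu library 1, *Rad52*) to 4 higher genes of the 41. DESeq2 called 32 lower and 3 higher. The median log2 fold change of the 41 was -0.84 with library totals, under which the median of all genes moved to 0.102, -0.70 and -0.83 by limma on log2(FPKM + 1) and log2(FPKM + 0.1), and -0.82 with the GC trend removed. Direction turned in *Fance* and in the 4 genes that had not passed the test. *Mus81* ran from -0.040 to 0.26 over left-out libraries and was -0.34 with the GC trend removed and -0.028 with its robust form. *Fance* was -0.29 with the GC trend removed. *Msh6* was 0.042 with library totals, 0.0040 above 5 CPM, and 0.040 and 0.041 on log2(FPKM + 1) and log2(FPKM + 0.1). *Xrcc6* was 0.0037 with median-of-ratios factors, 0.093 with library totals, 0.055 above 5 CPM, 0.091 and 0.096 on the FPKM scales, -0.11 to 0.10 over left-out libraries, and 0.0022 and 0.00084 with the GC trends removed. *Ung* ran from -0.037 to 0.13 over left-out libraries and was -0.31 and -0.053 with the GC trends removed. The causes were not tested. Deviations of same-numbered libraries correlated at -0.0306 over genes, so the numbers are not shown to pair them. With the replicate number as a block, 33 of the 41 were lower and 3 higher, and 4385 of all genes were called lower and 4468 higher.

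With 2 libraries per group, 2 residual degrees of freedom per gene and no record of how libraries were made, small changes such as those of *Atm*, *Prkdc* and *Fancf* depended on the setting. Intervals cover the spread between these libraries.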

Other observations

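Transcripts of the E2F factors and of genes that work with them changed as well, and their part in the repair results was not tested. Of 19 genes of E2F factors, their partners, the pocket proteins and the DREAM complex, 16 fell and 2 rose, and the median was -0.50 on the log2 scale. *Foxm1*, an activator of genes of G2 and mitosis, had 7.30 and 7.35 FPKM in the NaBu libraries, against 42.73 and 42.81 FPKM in the control libraries. *Mybl2*, its partner in that activation, had 10.51 and 11.91 FPKM in the NaBu libraries, against 33.79 and 33.21 FPKM in the control libraries. The atypical repressors *E2f7* and *E2f8* fell too, by 2.28 and 1.78 on the log2 scale. Those that rose, chosen after their values were seen, were *Rb1*, the pocket protein that restrains E2F factors, and *E2f5*, a repressor-type E2F. *Rb1* had 28.46 and 25.55 FPKM in the NaBu libraries, against 17.05 and 19.33 FPKM in the control libraries. *E2f5* had 4.87 and 3.67 FPKM in the NaBu libraries, against 2.35 and 2.44 FPKM in the control libraries. Their log2 fold changes were 0.47 ± 0.08 (SE; adjusted p = 0.000306 by edgeR) and 0.74 ± 0.17 (adjusted p = 0.00301).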
